A study of Homo sapiens with 6 samples.

Results

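Mediator and Integrator are the large multi-subunit complexes that act with RNA polymerase II. The values here are the RNA levels of the genes for their subunits in cells labelled as neuroblastoma. The genes were taken by name from the deposited count table: every symbol made of MED or INTS and a number, MED12L and MED13L among them, together with CDK8, CDK19 and CCNC. This gave 47 of the 58735 features in the table, 33 for Mediator and 14 for Integrator, and all 47 had enough counts to be tested. INTS6L is outside that naming rule, and INTS15 is listed in the table as C7orf26; both are described with the partners of Integrator. The study compared 3 libraries of cells with a lentiviral hairpin against ACSS2 (shACSS2, genotype given as ACSS2 deficiency) with 3 libraries of cells with a non-silencing hairpin (NS, genotype given as wild type). The labels give both as lines of BE(2)-C, a human neuroblastoma cell line. Both were made by lentiviral infection and puromycin selection and grown in the same medium with calf serum. ACSS2 is the nuclear and cytosolic enzyme that makes acetyl-CoA from acetate. The labels write the knockdown both as siACSS2 and as a hairpin and in 1 place name another target, NgBR. The sources used here give neither the hairpin's sequence nor the number of clones behind each line. Since no label says whether a group's libraries are separate cultures, the p-values stand for the spread among these samples alone, and that spread may be technical.

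Mediator bridges DNA-bound activators and the polymerase. Its head and middle modules contact the polymerase, MED14 is the backbone that joins the modules, and the tail is where many activators dock. A separable kinase module holds the kinase CDK8 or its paralog CDK19, the cyclin partner cyclin C (CCNC), MED12 or MED12L, and MED13 or MED13L, and can reversibly block the contact between Mediator and polymerase. Integrator carries an endonuclease, INTS11, and recruits protein phosphatase 2A. It forms the ends of small nuclear RNAs and ends transcription early at many protein-coding genes.

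The targeted gene was lower in the cells labelled shACSS2. ACSS2 stood at 4.67, 5.14 and 6.16 CPM (counts scaled to library size and edgeR's TMM factors) in the shACSS2 libraries, against 20.8, 20.5 and 20.2 CPM in the NS libraries, a log2 fold change of −1.94 (SE 0.145; Benjamini-Hochberg adjusted p = 1.95e-06 in the quasi-likelihood test of edgeR). An exact two-sided permutation test of its log2 CPM gave p = 0.1, the smallest value possible with 3 libraries a group. Library totals ran from 16617885 to 20831599 counts, at which 3 counts, the limit that a count of 0 allows, are 0.144 to 0.181 CPM (counting error only). Of 13 adrenergic neuroblastoma markers, 7 averaged at least 1 CPM and 3 (PHOX2A, TFAP2B and TH) had no counts in any library. Their summed level was 85.9 to 110 CPM in shACSS2 and 83.8 to 87.7 CPM in NS, with 2 that rose and 3 that fell. All 6 mesenchymal markers averaged at least 1 CPM, 391 to 440 CPM in sum in shACSS2 and 430 to 493 CPM in NS, and 2 of them fell. Of the markers of other cells, 1 of 5 Schwann cell genes, 4 of 6 fibroblast genes (summed level 36.8 to 46.6 CPM in shACSS2 and 31.9 to 38.3 CPM in NS, with 1 that rose and COL1A2 without counts) and 1 of 4 immune genes averaged at least 1 CPM. The identity of the cells is that of the labels, and whether these marker levels are those of BE(2)-C was not tested. The part of these markers in the results that follow was not tested either.

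Most subunit genes did not pass the test, and those that did moved in both directions. At an adjusted p of 0.05, 3 of the 47 genes rose in shACSS2 (CDK8, CCNC and INTS12) and 7 fell (INTS2, CDK19, MED13L, MED12, MED16, MED13 and MED1), while 37 did not pass. The 3 that rose are beside 7.48% of all 16210 genes tested, the 7 that fell beside 9.64%, and the 10 together (21.3%) beside 17.1%. Groups were without overlap in CPM for 22 of the 47 genes (46.8%; 12 higher and 10 lower in shACSS2), against 36.3% of all genes tested. The median log2 fold change was 0.03 over the 47 genes and 0.00245 over all genes tested, and −0.039 and −0.0702 when libraries were scaled to their totals. In a bulk sample, fewer cells of a type and less RNA per cell cannot be told apart. The counts rest in part on single libraries: 1 gene rose and 3 fell without NS replicate 1, where 6.15% of all genes passed, and the same numbers without NS replicate 3, where 6.98% passed. Only CDK8, CDK19, MED13L and INTS2 of the 10 passed the test whichever library was left out.

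**Figure D1:**
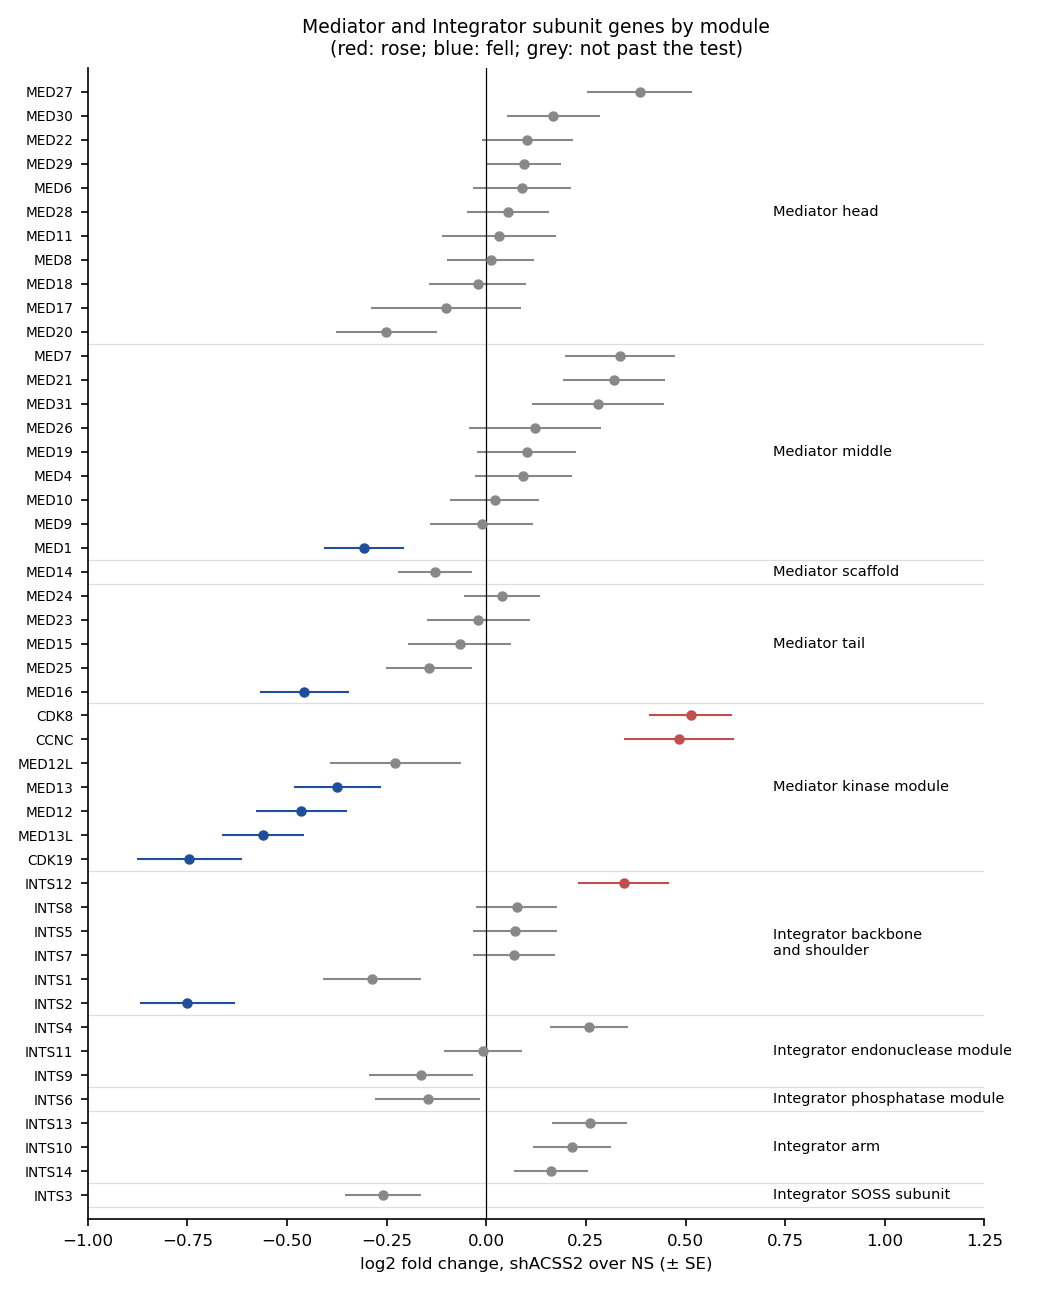
Log2 fold change (shACSS2 over NS, points, with bars of 1 SE from the edgeR fit) of the 47 subunit genes, ordered within each module. Red points mark the 3 genes that rose, blue points the 7 that fell and grey points the 37 that did not pass; 6 of the 10 coloured points are in the kinase module.

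Among the genes that fell, 3 carry in their longest annotated 3′ UTR a short sequence that was shared by many falling genes of these libraries in earlier work on the same data. It was searched for as ATGCTCA or TGCTCAA, which overlap by 6 bases, on the sense strand. Because it was picked from these same fold changes, its presence is a description and no support for any of them. It occurred in 9 of the 47 subunit genes (19.1%) and in 2381 of the 13262 genes tested whose 3′ UTR has 50 bases or more (18.0%). Among genes that fell it occurred in 3 of 7 subunit genes (42.9%), against 43.9% of all genes that fell. Among genes that rose it occurred in 0 of 3 subunit genes, against 6.75% of all, and among those that did not pass in 6 of 37 (16.2%), against 16% of all. The shares in subunit genes were thus close to those in all genes. Which UTR form these cells use was not examined. Genes with a match have longer UTRs, with a median of 2190 bases against 937 bases without one among subunit genes. The sites of the 3 genes that fell are printed with those of MED14 and INTS7, which hold the sequence and did not pass the test, so that both kinds can be compared. Each is 30 bases of the sense strand, 5′ to 3′, with the match in capitals (GRCh38, GENCODE v29).
INTS2, chr17:61866720-61866749, minus strand: taacttacctaATGCTCAgaggggggaaat
CDK19, chr6:110612815-110612844, minus strand: tcagcataataATGCTCActaataatgaag
MED1, chr17:39404514-39404543, minus strand: gattgggaaacATGCTCAgctataagaact
MED14, chrX:40648763-40648792, minus strand: aactccatggtATGCTCAcaattttctgca
INTS7, chr1:211940676-211940705, minus strand: agtttgttgggATGCTCAgggaacagagtt
The match begins at base 819 of 2190 after the stop codon in INTS2, at base 1702 of 4557 in CDK19 and at base 746 of 993 in MED1. It begins at base 3025 of 3500 in MED14 and at base 1130 of 1423 in INTS7. All 5 sites hold ATGCTCA, which was searched for, so that they share it is no result. The whole stretches on either side differ from gene to gene, though single bases beside the match recur. MED8, MED18, MED28 and INTS6 also hold a match, did not pass and are not printed. In MED8 the match is TGCTCAA.

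Within the kinase module the 2 alternative kinases moved in opposite directions. CDK8, the cyclin-dependent kinase of the module (ENSG00000132964, chr13:26254104-26405238, plus strand, GRCh38), had 44.6, 43.7 and 42.3 CPM in shACSS2, against 30.9, 32.3 and 28.4 CPM in NS. Every shACSS2 library was above every NS library, and CDK8 rose 1.43-fold (log2 fold change 0.51 with SE 0.104, edgeR adjusted p = 0.00413). CDK19, its paralog (ENSG00000155111, chr6:110609978-110815958, minus strand), had 19.99, 15.5 and 16.02 CPM in shACSS2, against 30.1, 25.5 and 30.7 CPM in NS. Every shACSS2 library was below every NS library, and CDK19 fell to a fitted 0.597 of its NS level (log2 fold change −0.74 with SE 0.131, edgeR adjusted p = 0.0017).

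Set against each other per kilobase of their longest coding transcripts, the kinases kept their order, with CDK8 the higher by this measure in every library. The order rests on those annotated lengths: in CPM, CDK19 was the higher in NS replicate 3, at 30.7 against 28.4 CPM. The CDK8 to CDK19 ratio was 4.56, 5.76 and 5.40 in shACSS2 and 2.10, 2.59 and 1.89 in NS. Since CDK8 was higher and CDK19 lower in every shACSS2 library than in any NS library, the ratios of the groups had to lie apart. Only the size of the difference was free, with means of 5.24 ± 0.613 in shACSS2 and 2.19 ± 0.357 in NS (SD, n = 3 each) and a log2 difference of 1.26 (SE 0.166). It stayed between 1.16 and 1.39 with any 1 library left out, an alternative chosen after seeing the data. An exact two-sided permutation test gave p = 0.1, that smallest value again, and 0.3 after Benjamini-Hochberg adjustment over the 3 paralog pairs of the module. The unadjusted outcome of that permutation test was fixed by the same separation, so it adds no evidence to the changes of the single genes. The CDK8 share is the same ratio in another form. CDK8 made up 83.9% ± 1.65 of the summed level per kilobase in shACSS2 and 68.4% ± 3.41 in NS (SD, n = 3 each). Summed as CPM, without regard to length, the pair came to 64.6, 59.3 and 58.3 CPM in shACSS2 and 61.0, 57.8 and 59.0 CPM in NS, ranges that overlap (exact permutation p = 0.6). Summed per kilobase it came to 17.8, 16.8 and 16.4 in shACSS2 and 14.9, 14.7 and 14.2 in NS, which do not overlap (exact permutation p = 0.1).

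**Figure D2:**
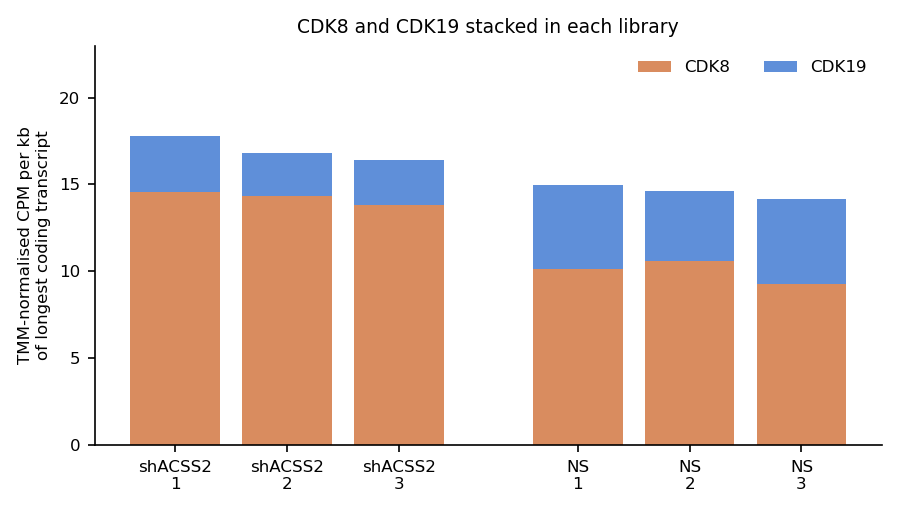
Stacked bars of CDK8 (lower, orange) and CDK19 (upper, blue) in each library, as TMM-normalised CPM per kilobase of the longest coding transcript. The CDK8 part is larger and the CDK19 part smaller in all 3 shACSS2 libraries than in any of the 3 NS libraries.

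CCNC, the cyclin that both kinases use (ENSG00000112237, chr6:99542380-99568973, minus strand), had 123, 85.0 and 90.8 CPM in shACSS2, against 66.6, 83.6 and 63.8 CPM in NS. The groups did not overlap, though shACSS2 replicate 2 was only just above NS replicate 2, and shACSS2 replicate 1 was far above the rest. CCNC rose 1.40-fold (log2 fold change 0.48 with SE 0.138, edgeR adjusted p = 0.0257). The call was lost without NS replicate 1 (log2 fold change 0.43 at an edgeR adjusted p of 0.124) and without NS replicate 3 (0.41, edgeR adjusted p = 0.129). Without shACSS2 replicate 1 it held at a smaller log2 fold change of 0.30 (edgeR adjusted p = 0.0458). An antisense gene shares 9.16% of the annotated exonic bases of CCNC and was at 0.0568 CPM in shACSS2 and 0 in NS.

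The 4 genes for the large regulatory subunits of the module all had negative fold changes, and 3 of them fell. MED12, which activates the kinase through cyclin C (ENSG00000184634, chrX:71118556-71142454, plus strand), had 64.1, 82.9 and 88.4 CPM in shACSS2, against 109, 105 and 111 CPM in NS. MED12 fell with no overlap of the groups (log2 fold change −0.46 with SE 0.114, edgeR adjusted p = 0.0124), and replicate 1 was the lowest of the shACSS2 libraries. Its call was lost without NS replicate 1 (edgeR adjusted p = 0.0625) and without NS replicate 3 (edgeR adjusted p = 0.0571), with log2 fold changes of −0.46 and −0.45. Its paralog MED12L had 16.6, 9.97 and 12.4 CPM in shACSS2, against 16.5, 14.2 and 14.9 CPM in NS. The groups overlapped, with shACSS2 replicate 1 as high as the highest NS library, and MED12L did not pass (log2 fold change −0.23 with SE 0.165, edgeR adjusted p = 0.364). Without that library it passed, at −0.44 (edgeR adjusted p = 0.0352), while without shACSS2 replicate 2 it was at −0.068 (edgeR adjusted p = 0.830) and with offsets for GC content and length at −0.13 (edgeR adjusted p = 0.534). IGSF10 shares 28.8% of the annotated exonic bases of MED12L on the other strand and was at 2.77 CPM in shACSS2 and 2.64 CPM in NS.

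MED13 and MED13L are the alternative subunits that tether the kinase module to the body of Mediator. MED13L (ENSG00000123066, chr12:115953872-116277719, minus strand) had 63.3, 65.1 and 72.4 CPM in shACSS2, against 100.03, 89.2 and 107 CPM in NS. The groups were well apart and MED13L fell (log2 fold change −0.56 with SE 0.102, edgeR adjusted p = 0.00221). Its annotated exons add up to 37364 bases, and in a fit with offsets for GC content and exonic length its log2 fold change was −0.21 (edgeR adjusted p = 0.0521). MED13 (ENSG00000108510, chr17:61942605-62065282, minus strand) had 90.8, 70.0 and 70.8 CPM in shACSS2, against 103, 96.6 and 100.4 CPM in NS. MED13 fell without overlap (log2 fold change −0.37 with SE 0.110, edgeR adjusted p = 0.0293), with shACSS2 replicate 1 nearest to the NS libraries. With the same offsets it was at −0.25 (edgeR adjusted p = 0.0142). The MED13 call was lost without NS replicate 1, NS replicate 3, shACSS2 replicate 2 or shACSS2 replicate 3, where edgeR adjusted p values ran from 0.0938 to 0.123 and log2 fold changes from −0.37 to −0.30.

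In these 2 paralog pairs the ratios of the groups overlapped. The MED12 to MED12L ratio per kilobase was 9.92 ± 3.55 in shACSS2 and 11.01 ± 0.699 in NS (SD, n = 3 each; exact permutation p = 0.8), with a log2 difference of −0.22 (SE 0.342). The MED13 to MED13L ratio was 1.62 ± 0.337 in shACSS2 and 1.42 ± 0.0995 in NS (exact permutation p = 0.5), with a log2 difference of 0.18 (SE 0.177). The summed CPM of each pair was lower in every shACSS2 library, at 91.4 ± 10.1 CPM in shACSS2 against 123 ± 4.10 CPM in NS for MED12 and MED12L, and at 144 ± 9.55 CPM in shACSS2 against 199 ± 11.2 CPM in NS for MED13 and MED13L. Since MED13 and MED13L were each lower in every shACSS2 library, their sum had to be lower too. The other sum is mostly MED12, itself lower in every shACSS2 library. The separation of these sums thus adds no evidence to the changes of the single genes. Whether the ratio of one pair changed more than that of another was not tested.

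Of the 7 genes of the kinase module, 2 rose, 4 fell and 1 did not pass (85.7% past the test, beside 17.1% of all genes), and the median log2 fold change was −0.37. In the other 26 Mediator genes, none rose and 2 fell (7.69%), with a median of 0.04. Within the module 1 gene rose and 2 fell without NS replicate 1, and likewise without NS replicate 3, while 2 rose and 5 fell without shACSS2 replicate 1. Over all genes 6.15%, 6.98% and 23.5% passed in these fits. With offsets for GC content and length the median of the module was −0.21.

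**Figure D3:**
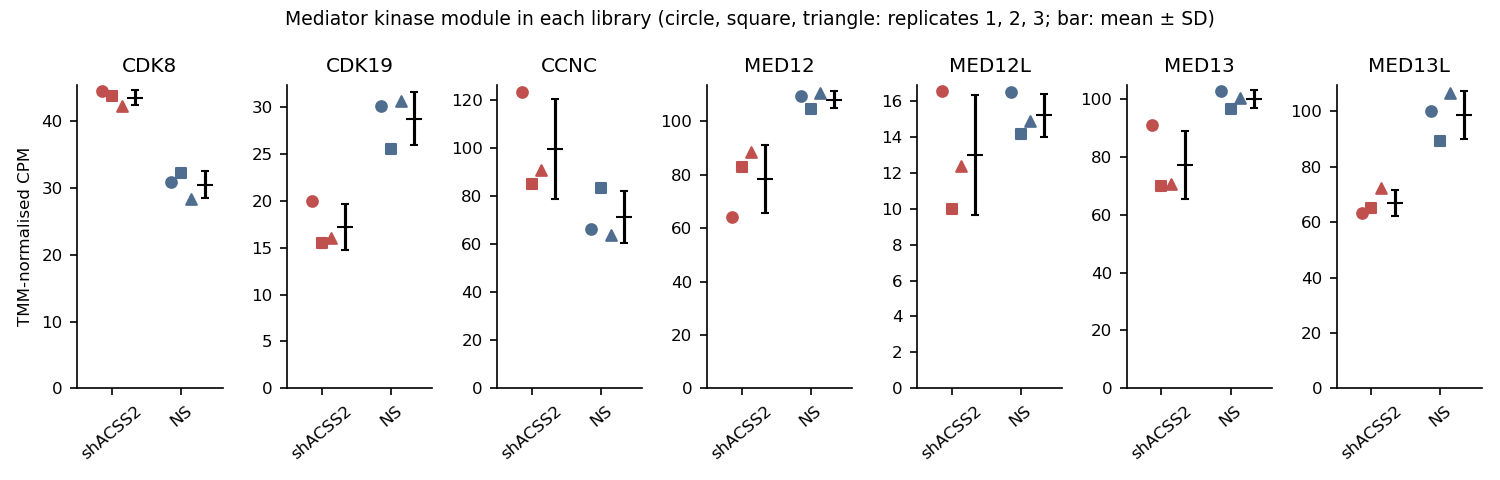
TMM-normalised CPM of the 7 kinase module genes in each library (shACSS2 in red, NS in blue; circle, square and triangle are replicates 1, 2 and 3; the bar is the mean ± SD, and each axis starts at 0). CDK8 and CCNC are higher and CDK19, MED12, MED13 and MED13L lower in every shACSS2 library than in every NS library; MED12L overlaps.

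In the head module, which holds the polymerase contact, none of the 11 genes passed the test, beside 17.1% of all genes tested. The median log2 fold change was 0.05, with a range from −0.25 to 0.38. The gene nearest to the threshold was MED27, a subunit at the joint of head and tail, with 48.1, 43.2 and 43.1 CPM in shACSS2, against 32.8, 41.7 and 28.4 CPM in NS. Every shACSS2 library was above every NS library, but NS replicate 2 lay only just below them (log2 fold change 0.38 with SE 0.131, edgeR adjusted p = 0.0536). Without NS replicate 2 MED27 passed, at 0.55 (edgeR adjusted p = 0.0133). It also passed under DESeq2 (adjusted p = 0.0389) and limma-voom (adjusted p = 0.0454). Without NS replicate 1 MED27 was at 0.35 (edgeR adjusted p = 0.193) and without NS replicate 3 at 0.26 (edgeR adjusted p = 0.257). MED20, which pairs with MED18 in the movable jaw of the head, had 30.4, 31.9 and 27.6 CPM in shACSS2, against 33.99, 42.4 and 30.6 CPM in NS. The groups overlapped and MED20 did not pass (log2 fold change −0.25 at an edgeR adjusted p of 0.186), though it did with offsets for GC content and length (−0.32, edgeR adjusted p = 0.0340). Without NS replicate 2 it was at −0.11 (edgeR adjusted p = 0.597). The other 9 head genes had log2 fold changes from −0.10 to 0.17.

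In the middle module 1 of 9 genes fell and none rose (11.1%, beside 17.1% of all genes tested), with a median log2 fold change of 0.10. MED1, the subunit that binds nuclear receptors (ENSG00000125686, chr17:39404285-39451286, minus strand), had 87.8, 79.9 and 86.3 CPM in shACSS2, against 116, 97.8 and 100.5 CPM in NS. The groups did not overlap and MED1 fell (log2 fold change −0.31 with SE 0.0994, edgeR adjusted p = 0.0447). Its call was lost without NS replicate 1 (−0.23, edgeR adjusted p = 0.242), NS replicate 3 (0.0921), shACSS2 replicate 2 (0.151) or shACSS2 replicate 3 (0.0986), and also with no count filter (0.0520). MED21 and MED7, which together form the hinge of the middle module, were each higher in every shACSS2 library and did not pass. MED21 had 47.4, 34.9 and 35.8 CPM in shACSS2, against 31.3, 34.3 and 28.9 CPM in NS (log2 fold change 0.32 with SE 0.128, edgeR adjusted p = 0.0946). MED7 had 18.1, 14.6 and 14.2 CPM in shACSS2, against 12.0, 12.9 and 12.2 CPM in NS (log2 fold change 0.34 with SE 0.137, edgeR adjusted p = 0.102). In both, shACSS2 replicate 1 was the highest library, and without it MED21 was at 0.17 (edgeR adjusted p = 0.231) and MED7 at 0.22 (edgeR adjusted p = 0.235). MED31 was at a log2 fold change of 0.28 (adjusted p = 0.259 by edgeR), but TXNDC17 shares 58.4% of its annotated exonic bases on the other strand and was at 52.7 CPM in shACSS2 and 41.3 CPM in NS. Without a stated strand setting, reads of the 2 genes cannot be told apart there.

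The backbone gene and 4 of the 5 tail genes did not pass. MED14, the backbone, had 115, 109.8 and 108 CPM in shACSS2, against 120, 115 and 128 CPM in NS; it was lower in every shACSS2 library and did not pass (log2 fold change −0.13 with SE 0.0923, edgeR adjusted p = 0.359). In the tail 1 of 5 genes fell (20%, beside 17.1% of all genes tested in either direction). MED16 (ENSG00000175221, chr19:867630-893218, minus strand) had 69.7, 88.0 and 93.4 CPM in shACSS2, against 114, 111 and 120 CPM in NS. The groups did not overlap and MED16 fell (log2 fold change −0.46 with SE 0.111, edgeR adjusted p = 0.0115), with replicate 1 the lowest shACSS2 library. Its call was lost without NS replicate 1 (−0.47, edgeR adjusted p = 0.0535) and without NS replicate 3 (−0.42, edgeR adjusted p = 0.0619). The other tail genes, MED15, MED23, MED24 and MED25, several of which are docking sites for activators, had log2 fold changes from −0.14 to 0.04.

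Among the 14 Integrator genes 1 rose, 1 fell and 12 did not pass (14.3% past the test, beside 17.1% of all genes tested). The median log2 fold change was 0.07. INTS2, a subunit of the backbone (ENSG00000108506, chr17:61865367-61928016, minus strand), had, with CDK19, the largest changes among the 47 genes, at log2 fold changes of −0.75 and −0.74. It had 44.3, 33.4 and 33.1 CPM in shACSS2, against 62.1, 60.6 and 63.6 CPM in NS. The groups were far apart and INTS2 fell to a fitted 0.595 of its NS level (log2 fold change −0.75 with SE 0.119, edgeR adjusted p = 0.0008). INTS12, a small subunit with a PHD finger (ENSG00000138785, chr4:105682627-105895986, minus strand), had 26.9, 23.9 and 25.8 CPM in shACSS2, against 19.98, 21.2 and 19.1 CPM in NS. INTS12 rose (log2 fold change 0.34 with SE 0.114, edgeR adjusted p = 0.0484), close to the threshold. Its call was lost without any library but shACSS2 replicate 1 (edgeR adjusted p from 0.0630 without NS replicate 2 to 0.178 without NS replicate 3, with 0.0633 without shACSS2 replicate 2, 0.115 without shACSS2 replicate 3 and 0.169 without NS replicate 1). It was also lost with library totals (0.27, edgeR adjusted p = 0.112). GSTCD, at 32.2 CPM in shACSS2 and 36.0 CPM in NS, shares 8.49% of the annotated exonic bases of INTS12 on the other strand.

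INTS1, the largest subunit of the backbone, had 148, 199 and 223 CPM in shACSS2, against 234, 224 and 237 CPM in NS. The shACSS2 libraries lay below the NS libraries but were widely spread among themselves, and INTS1 did not pass (log2 fold change −0.29 with SE 0.123, edgeR adjusted p = 0.117). It did without shACSS2 replicate 3 (−0.42, edgeR adjusted p = 0.0470), while without shACSS2 replicate 1 it was at −0.13 (edgeR adjusted p = 0.206) and with offsets for GC content and length at −0.17 (edgeR adjusted p = 0.0767). The other backbone and shoulder genes, INTS5, INTS7 and INTS8, had log2 fold changes from 0.07 to 0.08.

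In the endonuclease module none of 3 genes passed, beside 17.1% of all genes tested. INTS4, the scaffold on which the catalytic subunits sit, had 48.0, 45.1 and 46.0 CPM in shACSS2, against 38.1, 39.7 and 38.4 CPM in NS. It was higher in every shACSS2 library and did not pass (log2 fold change 0.26 with SE 0.0985, edgeR adjusted p = 0.0814), though it did with offsets for GC content and length (0.23, edgeR adjusted p = 0.0290). The endonuclease itself, INTS11, was at a log2 fold change of −0.01 (SE 0.0974, adjusted p = 0.966 by edgeR), and its inactive partner INTS9 at −0.16 (SE 0.131, adjusted p = 0.415 by edgeR). INTS6, which links the phosphatase to the complex, was at −0.15 (SE 0.131, adjusted p = 0.468 by edgeR).

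The 3 arm genes within the naming rule, INTS10, INTS13 and INTS14, were all higher in every shACSS2 library and none passed. Their median log2 fold change was 0.21, and 36.3% of all genes tested had groups without overlap. C7orf26 (INTS15), also listed with the arm, had overlapping groups and a log2 fold change of 0.03. INTS13 was nearest to the threshold, with 118, 108 and 109 CPM in shACSS2, against 87.2, 96.5 and 95.1 CPM in NS (log2 fold change 0.26 with SE 0.0940, edgeR adjusted p = 0.0678). It passed under DESeq2 (adjusted p = 0.0382) and without shACSS2 replicate 1 (0.22, edgeR adjusted p = 0.0424). Without NS replicate 1 INTS13 was at 0.21 (edgeR adjusted p = 0.292) and with library totals at 0.19 (edgeR adjusted p = 0.177). INTS10 was at a log2 fold change of 0.21 (adjusted p = 0.139 by edgeR) and INTS14 at 0.16 (adjusted p = 0.247). INTS3, which also belongs to the SOSS complex for single-stranded DNA, had 97.1, 103 and 102 CPM in shACSS2, against 124, 110.3 and 127 CPM in NS. It was lower in every shACSS2 library and did not pass (log2 fold change −0.26 with SE 0.0949, edgeR adjusted p = 0.0703), but it did without NS replicate 2 (−0.32, edgeR adjusted p = 0.0494), without shACSS2 replicate 1 (−0.23, edgeR adjusted p = 0.0413) and with library totals (−0.33, edgeR adjusted p = 0.0274). With offsets for GC content and length it was at −0.15 (edgeR adjusted p = 0.0943).

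The partners of both complexes moved in small numbers and in both directions. Among 12 genes that work with Integrator, 1 rose and 1 fell, and both are phosphatase genes. PPP2R1B, the beta form of the scaffold of protein phosphatase 2A, had 50.8, 41.0 and 41.2 CPM in shACSS2, against 81.7, 87.0 and 77.8 CPM in NS, and fell without overlap (log2 fold change −0.89 with SE 0.109, edgeR adjusted p = 0.000107). PPP2CB, the beta form of its catalytic subunit, had 51.6, 43.8 and 48.4 CPM in shACSS2, against 35.4, 36.1 and 34.1 CPM in NS, and rose without overlap (log2 fold change 0.45 with SE 0.104, edgeR adjusted p = 0.00949).

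Of the phosphatase genes for the alpha forms, which did not pass, PPP2R1A had a log2 fold change of 0.0032 and PPP2CA one of 0.15. INTS6L, the paralog of INTS6, had 27.1, 27.3 and 23.7 CPM in shACSS2, against 19.8, 21.6 and 22.8 CPM in NS. It was higher in every shACSS2 library and did not pass (log2 fold change 0.28 with SE 0.117, edgeR adjusted p = 0.105), nor did C7orf26, the gene also called INTS15 (0.03 with SE 0.125, edgeR adjusted p = 0.91).

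Of the 12 RNA polymerase II subunit genes, 2 rose (POLR2H, log2 fold change 0.40, edgeR adjusted p = 0.0245; POLR2D, 0.38, edgeR adjusted p = 0.0181) and none fell. Of 30 tested genes for general initiation factors, 6 rose and 2 fell. TAF9, a subunit of TFIID, had 127, 109.7 and 112 CPM in shACSS2, against 75.2, 86.9 and 71.9 CPM in NS (log2 fold change 0.58 with SE 0.104, edgeR adjusted p = 0.00206). The others with the largest changes were GTF2E2 (0.55, edgeR adjusted p = 0.00319), GTF2B (0.51, edgeR adjusted p = 0.0153) and TAF13 (0.48, edgeR adjusted p = 0.0252). Among 23 tested genes for pausing and elongation factors, none rose and 2 fell, both scaffolds of the super elongation complex, AFF4 (−0.39, edgeR adjusted p = 0.0186) and AFF1 (−0.33, edgeR adjusted p = 0.0441). Among 15 genes for mRNA cleavage factors 1 fell, PCF11 (−0.52, edgeR adjusted p = 0.00616), and none rose. In these 5 lists together, 9 of 92 tested genes rose and 6 fell (16.3%, beside 17.1% of all genes). By list the share was 26.7% for initiation factors and 16.7% each for polymerase subunits and Integrator partners. It was 8.7% for pausing and elongation factors and 6.67% for cleavage factors. Without NS replicate 1, and likewise without NS replicate 3, 2 rose and 2 fell. Without shACSS2 replicate 1, 10 fell, and without shACSS2 replicate 2 or 3, 2 fell.

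Ranked by level per kilobase of the longest coding transcript, the order of the 47 genes was much alike in both groups (Spearman correlation of 0.965 across genes, which are not independent replicates). INTS14 was the highest, at 48.3 CPM per kilobase in shACSS2 and 43.1 in NS, and MED12L the lowest, at 1.21 in shACSS2 and 1.41 in NS. The highest stood 30.5-fold above the lowest in NS. Of the 46 pairs of neighbours in the NS order, 40 had overlapping libraries, so most neighbours do not differ beyond their spread. Of the 10 genes past the test, CDK19 was rank 43 in both groups and MED13 rank 38 in shACSS2 and rank 37 in NS. Others lay further apart between the groups: CCNC was rank 2 in shACSS2 and rank 8 in NS, CDK8 rank 25 in shACSS2 and rank 35 in NS, MED16 rank 11 in shACSS2 and rank 4 in NS, and INTS2 rank 40 in shACSS2 and rank 32 in NS. In shACSS2, CDK8 stood at 14.3 CPM per kilobase, CDK19 at 2.75 and their cyclin CCNC at 40.3. In NS, CDK8 stood at 9.99 CPM per kilobase, CDK19 at 4.61 and CCNC at 28.8. Lengths are those of the annotation, and which transcripts these cells use was not examined.

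The spread within shACSS2 followed base composition. In shACSS2 replicate 1 the deviation of a subunit gene from the mean of its group correlated with the gene's GC content at a Spearman correlation of −0.806 over the 47 genes, and in shACSS2 replicates 2 and 3 at 0.789 and 0.636. The NS libraries gave 0.304, −0.216 and 0.0644. Over all genes tested the same measure was −0.607 in shACSS2 replicate 1 and 0.479 and 0.388 in replicates 2 and 3, so it was not limited to the subunit genes. Deviations within a group sum to 0, so the libraries of a group are not independent of each other here. Replicate 1 was the highest shACSS2 library for 29 of the 47 genes, whose median GC content was 42.6%, and the lowest for 15, with a median of 54.9%. CCNC, MED13, MED12L, MED21 and INTS2 are among the first, and MED12, MED16 and INTS1 among the second.

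**Figure D4:**
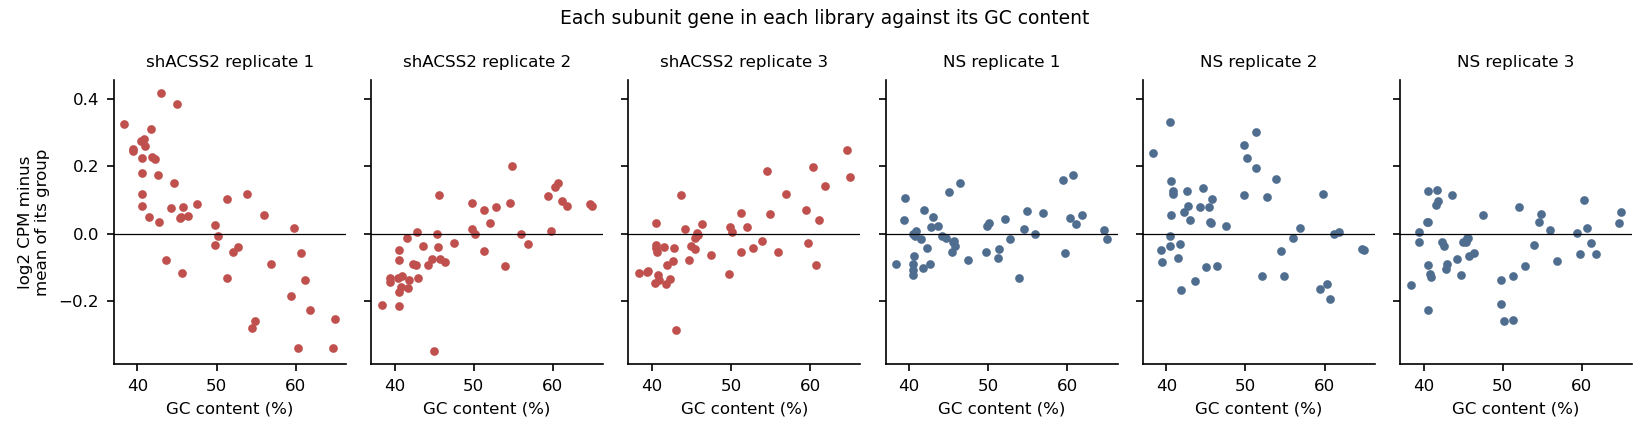
Deviation of each of the 47 subunit genes from the mean of its group (log2 CPM, vertical) against GC content (percent, horizontal), 1 panel per library. GC content is that of all bases of all annotated transcripts of the gene. Points slope down in shACSS2 replicate 1 and up in shACSS2 replicates 2 and 3; no such slope is as steep in the NS libraries.

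Fold changes also went with transcript length. Across the 47 genes the log2 fold change and the length of the longest coding transcript had a Spearman correlation of −0.588, and across 13430 coding genes tested one of −0.325. With GC content it was −0.166 across the 47 genes and −0.0075 across all genes. These are descriptions across genes that share libraries. With offsets for GC content and length in the edgeR fit, 6 subunit genes rose and 7 fell, beside 26.5% of all genes past the test. These offsets were fitted to deviations from the mean of all 6 libraries. They therefore also take out any difference between the groups that goes with GC content or length, whether real or technical. The part of length and base composition in the single fold changes was not tested otherwise.

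Taking all settings and single omissions, each of the 10 genes past the test kept its direction. The other 28 genes, those neither in the kinase module nor described library by library for their p or their calls, had log2 fold changes from −0.16 to 0.28 and adjusted p values of at least 0.139. Of these, 15 changed sign under some setting, the largest of them with a log2 fold change of 0.147 in size, and 1 (INTS10, with offsets for GC content and length) passed the test under some setting.

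**Figure D5:**
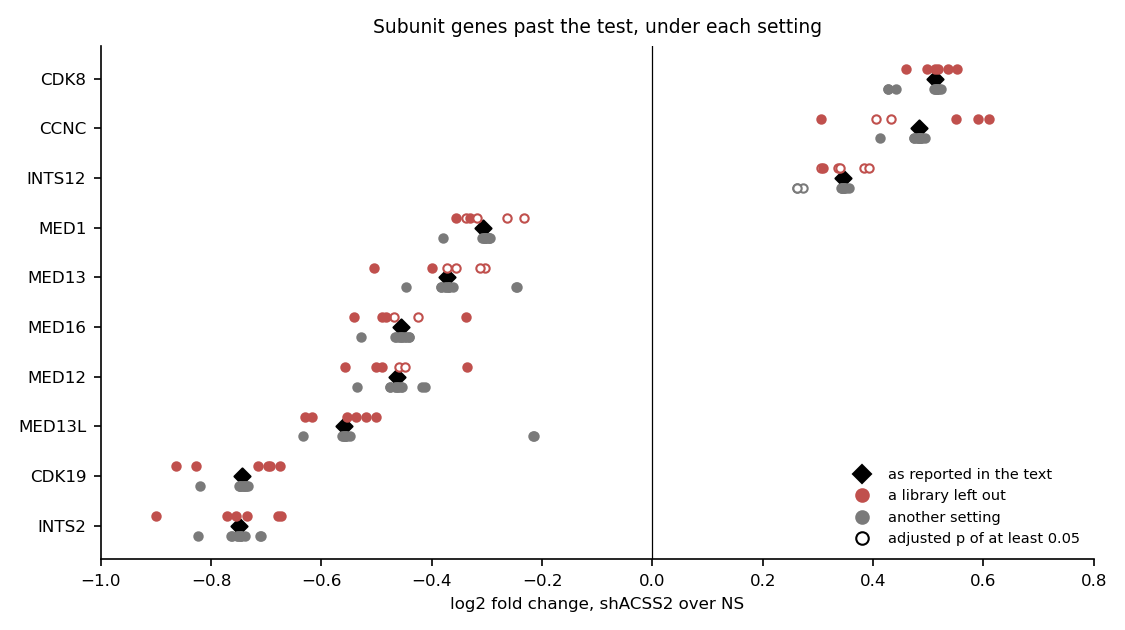
Log2 fold change (shACSS2 over NS) of the 10 subunit genes past the test, as reported (black diamonds), with each library left out (red circles) and under other settings (grey circles); open circles have an adjusted p of at least 0.05. No point lies on the other side of 0 from its diamond; CDK8, CDK19, MED13L and INTS2 have no open red circle.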

How the data were processed

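The authors deposited a table of whole-number read counts per gene for 6 libraries, not normalised. The submitters' processing notes name the build hg19 and, among tools, HISAT2 2.0.5, fastp, DESeq2 (with the version 4.3.1) and featureCounts 1.5.0-p3. The sources used here give no read length, strand setting or treatment of multiply matching reads. All 58735 gene identifiers were found in GENCODE v29, an annotation of GRCh38, from which coordinates, lengths, GC content and 3′ UTRs were taken; 27 names altered by spreadsheet software were restored by identifier. The table itself holds no coordinates, and which build underlies the counts is unresolved. Reads shared by overlapping genes or near-identical copies can be lost or assigned to either gene: 25 of the 47 subunit genes share annotated exonic bases with another gene, 6 of them over 20%.

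The main test was that of edgeR 4.0.16 under R 4.3.3 (TMM factors, default filter by group, robust quasi-likelihood fit, group as the only term), with Benjamini-Hochberg adjustment over 16210 genes at 0.05; "rose" and "fell" mean past this test. The standard error is the absolute log2 fold change divided by the root of the F statistic. Pairs of replicate libraries differed by more than sampling noise (chi-square of 4.28 to 17.3 per degree of freedom, genes with 20 or more counts in the pair). Each was kept as a replicate, though such an excess can be technical and does not show separate cultures. Alternatives used RLE, upper-quartile or library-total scaling, no filter or 1 CPM in 3 libraries, DESeq2 1.42.0, limma-voom (limma 3.58.1), an adjusted p of 0.01, no mitochondrial genes, a replicate block, offsets for GC content and length, and omission of each library. Python 3.11.15 with pandas 2.3.3 made the tables.

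The genes, modules and partner lists were chosen with earlier results of these data known. Values per library are given for genes past the test, the kinase module, the 4 other Mediator and 3 other Integrator genes with the smallest p, and genes whose call changes when a library is left out. From each partner list the up to 4 genes past the test with the largest change are named. Described in addition, after their values were seen, were INTS6L, C7orf26, PPP2R1A, PPP2CA, MED31, MED14, INTS9, INTS11, INTS6, INTS10 and INTS14. A member of the cell type marker lists is not reported here.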

Additional observations from a re-analysis of the deposited data

How the results depend on the processing

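Of the subunit genes, 3 rose and 7 fell. The counts were 5 that rose under DESeq2, 6 with offsets for GC content and length, 5 with those offsets and the replicate block, and 1 at an adjusted p of 0.01, where 3 fell. In both directions together, 25.5% of subunit genes passed under DESeq2, 27.7% with offsets and 27.7% with offsets and block. Over all genes the shares were 9.1% of the 31055 in the DESeq2 fit, 26.5% with offsets and 27.7% with offsets and block. The DESeq2 fit kept every gene with any count and called 2825, while the main fit called 2776 of 16210 filtered genes. All 47 subunit genes passed that filter, so their DESeq2 share and the 9.1% are of unlike sets. With single libraries omitted, 1 to 4 rose and 3 to 9 fell, beside 6.15% to 23.5% of all genes past the test. Over all genes, 1213 rose and 1563 fell. The numbers that rose were 2159 with the offsets, 2296 with offsets and block, 734 with library totals and 330 at an adjusted p of 0.01, where 680 fell. With single libraries omitted they ran from 310 to 1837 that rose and from 708 to 2094 that fell. In the partner lists 9 rose and 6 fell; 15 rose with offsets and block, 3 rose and 2 fell at 0.01, and 2 to 11 rose and 2 to 10 fell with single libraries omitted. Medians moved to −0.039 (47 genes) and −0.051 (Mediator) with library totals, and to −0.21 (kinase module) with offsets, or −0.22 with offsets and block. The cause was not tested. No label says whether the replicate numbers pair the samples. Deviations of same-numbered libraries correlated at −0.04, −0.07 and 0.11, and not every library correlated best with its own number. These values cannot decide the question, since deviations in shACSS2 followed GC content and deviations within a group sum to 0. With the replicate block, 3 subunit genes rose and 6 fell (19.1%, beside 18% of all genes). In that edgeR fit MED27 stood at an adjusted p of 0.0276, MED1 at 0.0513 and INTS12 at 0.0673. With 3 libraries a group, small changes near the threshold remain uncertain, and no exact permutation p can go below 0.1.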
